A study of Homo sapiens with 2 samples.

Results

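A set of 40 genes of glycolysis and of the response to low oxygen was compared between SAS cells and eSAS cells. They were chosen by function: the enzymes that turn glucose into lactate, the carriers that bring glucose in and take lactate out, the regulators that set the flux, the subunits and oxygen sensors of the hypoxia-inducible factors (HIFs), and genes that HIFs are known to drive. Of the 40 genes, 39 were named on the array, which held 30484 names in all, and 38 were well above background on both arrays. Some of the array's names are identifiers of transcripts or probes, and they are counted as genes wherever all genes are given. SAS is an established cell line from a human tongue squamous cell carcinoma. eSAS was derived from it by 5 rounds in which large spheroids, the cell aggregates that form in three-dimensional culture, were picked with a filter tool. Both were grown in the same serum-containing medium, and total RNA labelled with a single dye was hybridised to 1 array of each. The methods include a step that grows a line from a single cell by dilution, but do not say whether the eSAS RNA came from such a clone or from a mixed population, and they give no oxygen level for the cultures other than a standard incubator.

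Glycolysis splits glucose into pyruvate in the cytosol and yields ATP without oxygen, and lactate dehydrogenase then turns pyruvate into lactate so that the pathway can go on. Tumours commonly run it fast even in air, and squamous carcinomas of the mouth are known for high glucose uptake. When oxygen falls, prolyl hydroxylases stop marking HIF-1α and HIF-2α for destruction, and the stabilised subunits pair with ARNT and bind short DNA motifs called hypoxia response elements near glycolytic genes and genes of vessel growth, pH control and cell survival. Because this control acts on the HIF protein, the mRNA of a HIF subunit does not report its activity.

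With 1 array per condition there was no test between the cells and no p-value. All ratios are eSAS over SAS on the log2 scale, after each array's signals had been set relative to its 75th percentile (1242 for SAS and 1196 for eSAS), so that a negative value means a lower level in eSAS. Signals are quoted unscaled. A gene was counted as higher or lower when it was at least 1.5-fold apart, a log2 ratio of 0.585. The technical spread was read from probes that were printed at 10 places on each array. The SD of their log2 ratio was 0.042 for signals above 1000 (138 probes) and 0.078 from 100 to 1000 (53 probes). It was 0.17 from 30 to 100 (16 probes) and 0.29 below 30, where it rests on only 4 probes. This leaves out any variation between cultures. It also leaves out differences between probes of the same gene. Over the 5334 genes with 2 or more measured probes, the SD between probes had a median of 0.086 and a 90th percentile of 0.27. Signal was well above background at 69.4% of the probe spots for SAS and 67.5% for eSAS, and no spot was saturated. All 12 squamous epithelial markers were measured on both arrays, 11 of them below 0, beside 50.2% of all genes measured on both arrays. Of the markers of other cell types, 1 of 8 for fibroblasts, 2 of 9 for leukocytes and 1 of 6 for endothelium were well above background on both arrays. The fibroblast marker was THY1, bright at 2667 in SAS and 2556 in eSAS. COL1A1 and CDH5 were well above background in SAS alone and LUM in eSAS alone, while PTPRC, COL1A2 and PECAM1 were so on neither.

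Most glycolysis and hypoxia genes were close to the same level in both cells. Of the 38 measured genes, 3 were at least 1.5-fold lower in eSAS: ANGPTL4, NDRG1 and PGK1. That is 7.89% of them, beside 4.99% of all 19467 genes measured on both arrays. None was at least 1.5-fold higher, beside 3.19% of all genes (8.18% in either direction), and 1 gene, ANGPTL4, was at least 2-fold apart, beside 2.37%. The log2 ratios had a median of -0.033 and ran from -2.56 to 0.46, with 21 genes below 0 and 17 above, and the median of all genes was -0.0012. Within 1.2-fold lay 27 of the 38 genes (71.1%), beside 72.6% of all genes. These shares lie close to those of all genes. Of the 16 genes with 2 or more measured probes, 12 had every probe on the same side of 0. This was not counted for all genes.

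**Figure D1:**
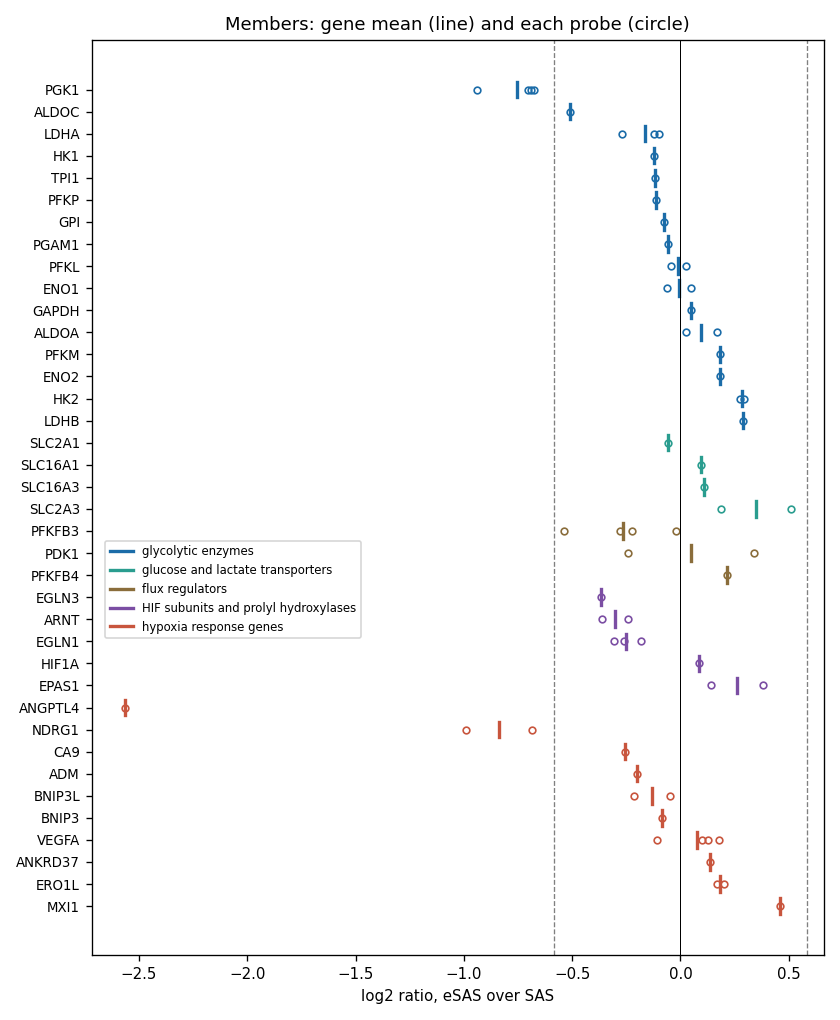
Log2 ratio of eSAS over SAS (x axis) for each of the 38 measured genes (y axis), grouped by role in colour. Vertical marks are gene means, circles are probes, and dashed lines stand at 1.5-fold; ANGPTL4 (-2.56), NDRG1 (-0.84) and PGK1 (-0.75) are the genes beyond the lower line, and no gene lies beyond the upper line.

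ANGPTL4 had the lowest ratio of these genes. It encodes a secreted inhibitor of lipoprotein lipase that is induced by hypoxia and by fatty acid sensing receptors. Its single probe lies on chromosome 19 at 8345169 to 8345228 of hg18, and its signal was 309 in SAS and 50.3 in eSAS, a log2 ratio of -2.56 or 5.91-fold lower in eSAS. The level in eSAS was thus low but still well above background. The 24 spots nearest to it on the array had a median log2 ratio of -0.019, ranging from -0.24 to 0.076, so the spot stood apart from its surroundings. Among the 253 genes within 5 Mb of it, the median was 0.037 and 1 gene had a lower ratio. The value rests on 1 spot per array, and it is 0.084 under 1 of the background corrections tried (normexp on all spots) and between -2.62 and -1.66 under the others.

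The 250 bases before the start of ANGPTL4 are shown because it had the lowest ratio of the genes studied, together with those of PGK1, the glycolytic enzyme that was lower in eSAS. Both are RefSeq sequences of GRCh38.p14, on the plus strand and 5′ to 3′, at chr19:8363905-8364154 for ANGPTL4 and chrX:78103998-78104247 for PGK1. Capitals mark each match to ACGTG or GCGTG, the core of a hypoxia response element, read on either strand, so that a match on the other strand appears as CACGT or CACGC.
ANGPTL4: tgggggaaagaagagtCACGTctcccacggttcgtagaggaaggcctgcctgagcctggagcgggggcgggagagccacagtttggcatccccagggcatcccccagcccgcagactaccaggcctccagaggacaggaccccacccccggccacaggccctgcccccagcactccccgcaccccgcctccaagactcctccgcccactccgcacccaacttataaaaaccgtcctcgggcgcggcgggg
PGK1: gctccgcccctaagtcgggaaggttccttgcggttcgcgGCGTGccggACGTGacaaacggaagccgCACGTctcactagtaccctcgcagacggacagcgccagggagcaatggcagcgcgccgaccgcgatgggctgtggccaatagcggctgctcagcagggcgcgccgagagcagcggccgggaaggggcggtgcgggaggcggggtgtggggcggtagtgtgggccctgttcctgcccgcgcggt

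The ANGPTL4 promoter held 1 match, beginning at position -234, where -1 is the base just before the start. In PGK1 there were 3, beginning at -211, -202 and -183. ACGTG is also part of the E-box CACGTG, which other factors bind and in which both strands match. The promoter table held 35 of the 40 genes, of which 23 had at least 1 match (65.7%), beside 11763 of all 27305 promoters of the same length (43.1%). A match to these letters does not show that a factor binds there, and the array did not measure binding.

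NDRG1 encodes a cytoplasmic stress response protein that is strongly induced by hypoxia and by differentiation. It was measured by 2 probes, both on chromosome 8 of hg18. The first, at 134318901 to 134318960, gave 11291 in SAS and 6758 in eSAS, a log2 ratio of -0.69. The second spans 134331930 to 134335984, a stretch of 4055 bases that must cross at least 1 intron, and was dim at 52.5 and 25.4, a log2 ratio of -0.99. Both probes were lower in eSAS, by more than the spread of replicate spots of their brightness. The gene mean was -0.84 (SD 0.22, 2 probes), or 1.79-fold lower. Of the 24 genes within 5 Mb of NDRG1, 1 was at least 1.5-fold lower, none was as low as NDRG1, and their median was -0.0027. The call was lost with no background correction (-0.55) and with the normexp correction, at -0.52 when fitted without spots whose local background was marked and at -0.062 with them.

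PGK1, phosphoglycerate kinase, carries out the first ATP-producing step of glycolysis. It was the only one of the 16 measured glycolytic enzymes that was at least 1.5-fold apart. It was measured by 4 probes, all on chromosome X of hg18. The probe at 77268118 to 77268177, printed 10 times, had spot signals between 51112 and 56978 in SAS (median 53248) and between 30392 and 33744 in eSAS (median 31407). The log2 ratio of this probe was -0.71 with an SD of 0.026 over its spots. A probe at 77268458 to 77268517 gave 1349 and 804 (-0.69), one between 77265063 and 77265367 gave 9620 and 5792 (-0.68), and one at 77270262 to 77270321 gave 329 and 165 (-0.94). All 4 probes were lower in eSAS, although they differed in brightness over a wide range, and the gene mean was -0.75 (SD 0.13), or 1.69-fold lower. In RNA from a whole culture, fewer cells with a transcript and less of it per cell cannot be told apart.

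PGK1 was also the only one of the 38 measured genes on chromosome X, and the chromosome as a whole was lower in eSAS. The 631 measured genes of chromosome X had a median of -0.48, with quartiles of -0.71 and -0.11; 82.9% of them were below 0 and 39.5% were at least 1.5-fold lower, beside 3.82% of autosomal genes. Around PGK1 the shift was larger still. The 33 other names within 5 Mb, among them transcript and probe identifiers, had a median of -0.64. Of these, 18 were at least 1.5-fold lower and 14 were lower than PGK1 itself, down to -1.40. Among the 33 are S81916 (-1.30) and BX406954 (-0.19), which lie between the outermost PGK1 probes and so may not be separate genes. THC2569379, THC2671036, THC2719256 and THC2694175 also lie close together, between -3.91 and -3.87 Mb from PGK1. ENST00000360548 and RP11-217H1.1 are likewise close neighbours. All of these close neighbours were lower than PGK1, so the 14 may count some genes more than once. Relative to the median of its chromosome PGK1 stood at -0.28, short of 1.5-fold. Whether its level follows that of the chromosome was not tested. Without PGK1, 2 of the remaining 37 genes were at least 1.5-fold lower (5.41%), and their median was -0.0097.

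**Figure D2:**
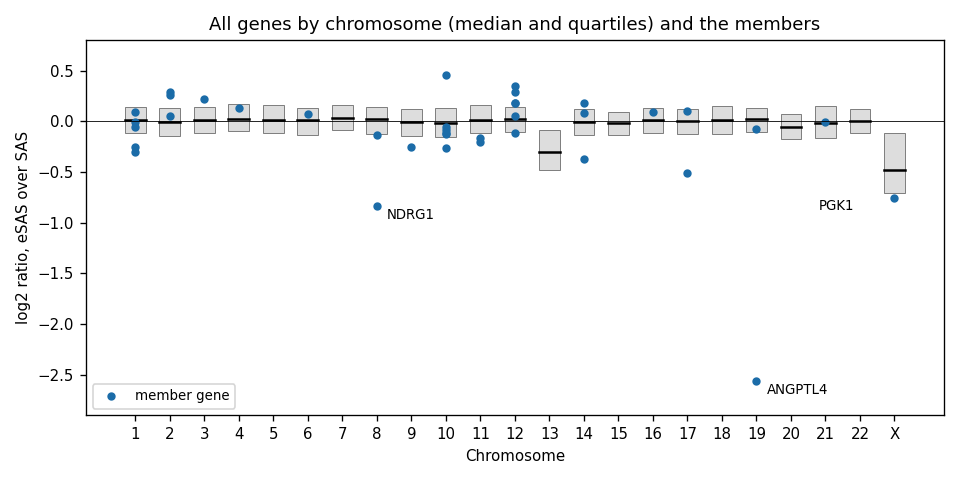
Log2 ratio of eSAS over SAS (y axis) by chromosome (x axis). Boxes give the quartiles and lines the median of all measured genes of a chromosome, and dots are the glycolysis and hypoxia genes; PGK1 lies just below the box of chromosome X, whose median is -0.48, whereas NDRG1 and ANGPTL4 lie far below boxes centred near 0.

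**Figure D3:**
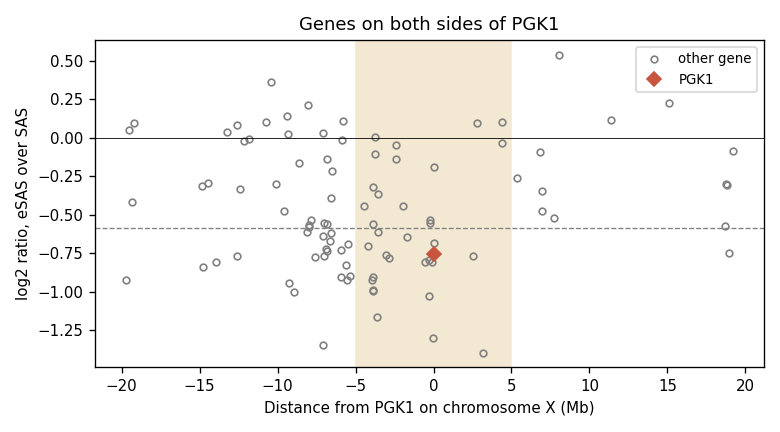
Log2 ratio of eSAS over SAS (y axis) against distance from PGK1 along chromosome X in Mb (x axis). The diamond is PGK1 and circles are other names counted as genes. The shaded band spans 5 Mb on each side and the dashed line stands at 1.5-fold lower. In the band the median is -0.64 and 14 of 33 names lie below PGK1.

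The other genes outside chromosome X did not sit in such a region. None of the measured genes lies on chromosome 13, the other chromosome with a low median (-0.31 over 343 genes), and the median of the genes within 5 Mb of each of those outside chromosome X was never further from 0 than 0.0459.

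The other 15 glycolytic enzymes were less than 1.5-fold apart, and 12 of the 16 were within 1.2-fold. In the order of the pathway, the hexokinases that trap glucose in the cell came first. HK1, the common form, gave 3855 in SAS and 3412 in eSAS (-0.12) with its 1 probe above background; with its dim second probe included it stood at 0.066. HK2, the form that HIF induces and that many tumours express, was higher with both probes, from 777 to 905 and from 4024 to 4756 (mean 0.28). This was more than the spread of replicate spots but short of 1.5-fold, at percentile 89.0 of all genes. GPI, which isomerises glucose-6-phosphate, stood at -0.08.

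The subunits of phosphofructokinase, the committed step, differed in direction. PFKM was at 0.18 (12773 and 13956), PFKP at -0.11 (18162 and 16161) and PFKL, with 2 probes of opposite sign, at -0.01. ALDOA, the main aldolase, was at 0.10. ALDOC, an aldolase known from brain, had the next largest difference among the enzymes after PGK1, 52.3 in SAS and 35.4 in eSAS (-0.51, or 1.42-fold lower), but from 1 dim probe, in a range where replicate spots had an SD of 0.17. TPI1, which joins the branches after aldolase, was at -0.12 (36165 and 32054).

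The enzymes just before and after PGK1 in the pathway were within 1.2-fold. GAPDH, the enzyme just before PGK1 and a common reference gene, had 10 spots between 99903 and 118424 in SAS (median 105581) and between 97747 and 115324 in eSAS (median 105385). The log2 ratio was 0.05 (SD 0.055 over spots). PGAM1, the enzyme just after PGK1, was at -0.06 (52198 and 48334). Of the enolases, ENO1 was at -0.01 (2 probes) and the neuronal form ENO2 at 0.18 (152 and 166).

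The subunits of lactate dehydrogenase lay on opposite sides of 0. LDHA, the form that favours lactate formation and is a HIF target, was lower with all 3 probes: 54524 in SAS and 43573 in eSAS, 24265 and 21812, and 14287 and 12622 (-0.27, -0.10 and -0.12, mean -0.16). LDHB, the form that favours pyruvate, gave 73232 and 86030 (0.29). Both differences exceeded the spread of replicate spots of that brightness, and neither reached 1.5-fold. Among all genes LDHA lay at percentile 22.5 and LDHB at 89.1, and the log2 ratios of all genes had an SD of 0.37. PKM, which makes pyruvate and was not among the 40 genes, was at -0.14 with 2 probes. The 16 enzymes together had a median of -0.033.

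**Figure D4:**
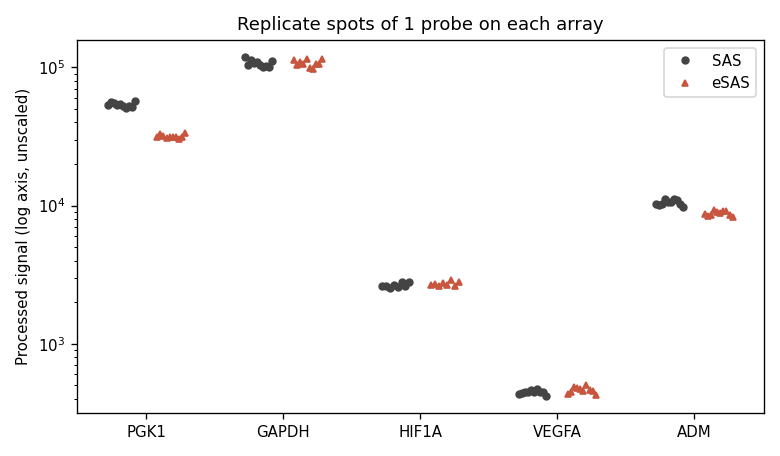
Unscaled processed signal (y axis, log axis) of each replicate spot of the 5 probes printed 10 times, SAS as circles and eSAS as triangles; marked spots are left out. The log2 ratios of these probes after scaling are -0.71 for PGK1, -0.20 for ADM, 0.05 for GAPDH, 0.09 for HIF1A and 0.10 for VEGFA. The spread of spots within an array leaves out any variation between cultures.

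The 4 carriers had a median of 0.10, and none was at least 1.5-fold apart. SLC2A1 (GLUT1), the main glucose carrier of carcinoma cells and a HIF target, gave 11652 in SAS and 10794 in eSAS (-0.06). SLC2A3 (GLUT3), a high-affinity glucose carrier, was at 0.35 from 2 dim probes, 14.7 and 20.1 for one (0.51) and 75.7 and 83.1 for the other (0.19). The lactate carrier SLC16A3 (MCT4), which exports lactate from glycolytic cells, was bright and nearly equal at 60272 and 62500 (0.11). SLC16A1 (MCT1), which carries lactate in either direction, gave 2768 and 2845 (0.09).

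None of the 3 flux regulators was at least 1.5-fold apart, and their median was 0.049. PFKFB3 and PFKFB4 make fructose-2,6-bisphosphate, the activator of phosphofructokinase. PFKFB4 was at 0.22 (196 and 219). For PFKFB3 all 4 probes were below 0, from -0.54 to -0.02, and the only one with a signal above 100 gave 934 and 740 (-0.28).
PDK1, the kinase that keeps pyruvate out of the mitochondrion, had 2 probes of opposite sign, 256 and 312 (0.34) and 2627 and 2137 (-0.24). The first lies in rows 450 to 510 of the array; without the probes of those rows PDK1 stood at -0.23. The 2793 probes of those rows had a median of 0.0073 and the other 23866 probes one of -0.0057.

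None of the 5 HIF subunits and oxygen sensors was at least 1.5-fold apart, and their median was -0.25. HIF1A, the broadly expressed oxygen-regulated subunit, had 8 usable spots between 2551 and 2805 in SAS (median 2624) and between 2624 and 2897 in eSAS (median 2680). Its log2 ratio was 0.09 (SD 0.020 over spots). EPAS1 (HIF-2α) was higher with both probes, 48393 and 51449 (0.14) and 667 and 838 (0.38). ARNT, the constitutive partner of both, was lower with both of its dim probes, 98.7 and 80.5 (-0.24) and 70.8 and 53.0 (-0.36).
The hydroxylases that mark HIF for destruction are themselves induced by it. EGLN1 (PHD2), the main one, was lower with all 3 probes (-0.31, -0.26 and -0.18), from 2170 to 1691 with the first of them. EGLN3 (PHD3) was at -0.37 from 1 probe (99.1 and 74.0). KDM3A, a histone demethylase that HIF induces, was not found by name, but 3 probes with its accession, listed on the array as JMJD1A, were at -0.37, -0.27 and -0.30. They gave 854 and 637, 248 and 197, and 1462 and 1148. KDM3A is left out of all counts.

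The 10 measured genes that HIFs are known to drive had a median of -0.11. ANGPTL4 and NDRG1, described above, were at least 1.5-fold lower, and 7 of the 10 were within 1.2-fold. VEGFA, the main growth factor for blood vessels, had 4 probes from -0.11 to 0.18 (mean 0.08), the brightest of them the one below 0. Its probe with 10 spots ran from 417 to 474 in SAS (median 446) and from 424 to 503 in eSAS (median 461). ADM, a vessel-dilating peptide, had spots from 9786 to 11125 in SAS (median 10428) and from 8207 to 9305 in eSAS (median 8799). The log2 ratio of ADM was -0.20 with an SD of 0.012 over spots, a small difference measured closely on these 2 arrays.
CA9, the membrane carbonic anhydrase used as a marker of tumour hypoxia, was dim at 101 and 81.2 (-0.26). CA12, a related enzyme, had 4 probes, none well above background on either array (2.93 to 13.2 in SAS and 3.35 to 12.2 in eSAS), and so is given no ratio. Without background correction, the dim genes ALDOC, PFKFB3, ARNT, EGLN3 and CA9 stood closer to 0, between -0.18 and -0.11. BNIP3 and BNIP3L, receptors for the removal of mitochondria, stood at -0.08 (16435 and 14927) and -0.13 (2 probes). ANKRD37, a small ankyrin repeat protein, was at 0.13 (439 and 464), and ERO1L, which forms disulphide bonds in the endoplasmic reticulum, was at 0.18 (2 probes, 0.17 and 0.20).
MXI1, a repressor that opposes MYC, had the highest ratio of the 38 genes: 1100 and 1455 (0.46, or 1.37-fold higher), from 1 probe.

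The same pathways were followed outside the 40 genes with 7 lists of 143 other genes, of which 106 were measured on both arrays. Of these, 9 were at least 1.5-fold lower (8.49%) and 5 were higher (4.72%), beside 4.99% and 3.19% of all genes, and their median was -0.021. Of the 9 lower genes, 3 were among the 4 measured genes of chromosome X. No count was tested against that of all genes.

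**Figure D5:**
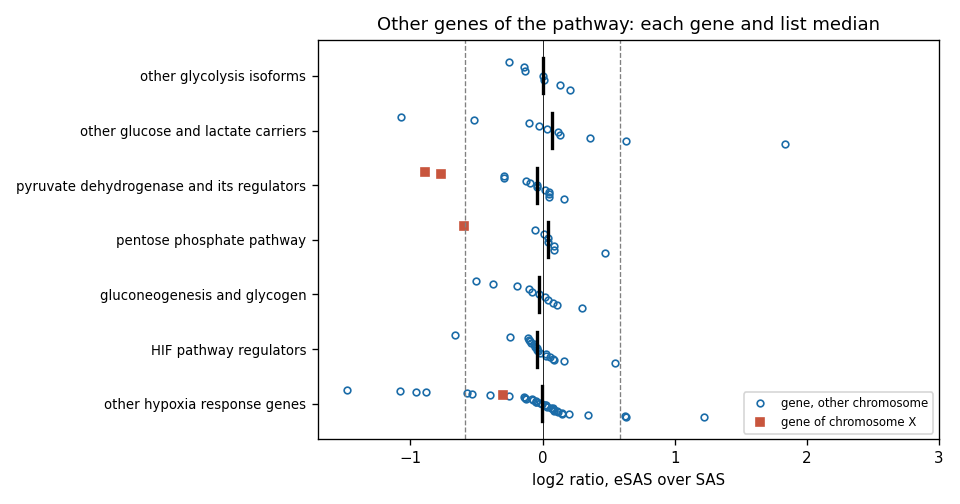
Log2 ratio of eSAS over SAS (x axis) for the 106 measured genes of 7 further lists (y axis). Circles are genes of other chromosomes, squares genes of chromosome X, thick marks list medians and dashed lines 1.5-fold; the medians lie near 0, and SLC16A7 (1.83) lies furthest to the right.

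Of the 106 genes, SLC16A7 (MCT2), a high-affinity carrier of pyruvate and lactate, was the furthest apart. Its 2 probes were dim, 23.3 in SAS and 97.8 in eSAS for one (2.13) and 25.6 and 71.8 for the other (1.54), and the gene mean was 1.83, or 3.57-fold higher in eSAS. With no background correction it was 0.96, and with normexp without marked backgrounds 0.73. Its relative SLC16A6 was at 0.63 from 2 dim probes (0.53 and 0.73), and short of 1.5-fold under the same settings (0.41 and 0.29). SLC16A5, of the same family, was lower, 8412 in SAS and 3850 in eSAS (-1.07). The median of the 10 measured carriers was 0.075. Among the 7 measured isoforms and neighbours of the glycolytic enzymes none was 1.5-fold apart, and HK3 and PGK2 were not well above background on either array.

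Pyruvate dehydrogenase feeds pyruvate to the citric acid cycle, and its regulators switch it off and on. Of the 13 measured genes of this list, PDHA1, the catalytic subunit, was at -0.77 (26243 and 14830) and PDK3, a kinase that inhibits it, at -0.89 (593 and 308). Both lie on chromosome X, and relative to that chromosome's median they stood at -0.29 and -0.41. None of the 11 genes of gluconeogenesis and glycogen measured on both arrays was 1.5-fold apart. This count leaves out 2 genes that were well above background in SAS alone and so have only a bound. FBP1, the fructose bisphosphatase that reverses the phosphofructokinase step, gave 47.2 in SAS and 5.12 in eSAS, at least 2.99-fold lower. PPP1R3C, which targets a phosphatase to glycogen, gave 24.2 and 4.55, at least 1.54-fold lower. For each bound the lowest eSAS signal well above background, 15.2, stood in for the eSAS value. In all, 6 genes of the 7 lists were well above background in SAS alone and none in eSAS alone. This was not counted over all genes, and the lowest signal well above background was itself lower in SAS (12.8). The bounds of SLC2A10, HIF3A, STC1 and PPFIA4, at 16.3 to 20.3 in SAS, were below 1.5-fold.

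Of 20 measured regulators of HIF, 1 was at least 1.5-fold lower: CITED4, which competes with HIF for its coactivator, at -0.66 (-0.72 and -0.61 with 2 probes). HIF1AN, which blocks the activation domain of HIF, and EGLN2 stood at 0.08 and -0.04. VHL, which directs HIF to destruction, was at -0.14 with its probe on chromosome 3 (1144 and 1001). A second probe that the array names VHL lies on chromosome 9 and is not read as VHL here, although the list median includes it. Among 37 further measured hypoxia genes, 4 were lower and 3 higher, with a median of -0.0039. Among those furthest apart were RORA, a nuclear receptor, at -1.48 (102 and 35.4; -0.79 with no background correction), LOX, which crosslinks collagen, at 1.22 (149 and 333), RAB20, a small GTPase, at -1.08 (284 and 130), and BHLHE41, a repressor of the circadian clock, at -0.96. RAB20 lies on chromosome 13 and stood at -0.77 relative to that chromosome's median. PGF and TFRC were the other higher genes, at 0.63 and 0.62. PGF was dim, 20.9 and 31.1, and stood at 0.27 with no background correction. TFRC, bright at 17978 and 26652, stood at 0.57 without scaling.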

How the data were processed

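Expression in SAS and eSAS was measured on 2 arrays of 1 slide with a single dye, 1 array per condition. The deposited values are linear intensities from Agilent Feature Extraction 10.7.3.1 (per the submitters' processing notes), already corrected for background and spatial trend within each array and not scaled between arrays. Their series table held the same values. No scaling behind the authors' own fold changes is given in the sources used here.

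The log2 of the processed signal minus each array's 75th percentile was taken. Marked spots (non-uniform, or outliers among replicate spots) were dropped, replicate spots were averaged, and a probe counted when more than 50% of its spots were well above background on both arrays. A gene's value is the mean of its probes. Probe positions are those of the array (hg18); exon and UTR annotation in that build was not used here. From each further list, genes at least 1.5-fold apart are named, at most the 5 furthest; genes named beyond this rule (among them PKM, VHL, HIF1AN, EGLN2, PGF, TFRC, genes above background on 1 array and markers at background) were chosen after their values were seen. A few list genes enter the counts but are not reported here by name. The genes and lists were chosen with earlier results of these data known. Chromosome values leave out 1 gene of chromosome X and the genes of chromosome Y. They also leave out genes without a position and genes with probes on more than 1 chromosome, and cover 19229 genes. Besides these settings 14 others were tried, and 1 more was added after the data were seen (closing section). Calculations used Python 3.11.15, numpy 2.4.6, pandas 2.3.3, R 4.3.3 and, for normexp and quantile normalization, limma 3.58.1. In simulated data on 19467 genes, 200 of 200 genes given a 2-fold change and 0 of 19267 others were called. The simulation copied the SAS array with the same small noise at every brightness and no variation between cultures. It therefore checked the calculation and not the calls made here.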

Additional observations from a re-analysis of the deposited data

How the results depend on the processing

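One setting moved the results as a whole. With the normexp background correction (offset 50) fitted on all spots, and after removal of a shift of 0.68 in the median of all genes, 8 of the glycolysis and hypoxia genes were at least 1.5-fold higher, 22 were at least 1.5-fold lower and 22 were at least 2-fold apart. Their median was then -0.81, that of the glycolytic enzymes -1.13 and that of the hypoxia response genes -0.25. The shares of all genes past these folds under this setting are not given here. The counts therefore cannot be read as particular to the glycolysis and hypoxia genes. ANGPTL4 changed sign (0.084), and PGK1, NDRG1 and MXI1 stood at -1.14, -0.062 and -0.31. The same correction without 26 spots with a marked local background kept those counts and medians within the range of the other settings, with ANGPTL4 at -1.66 and NDRG1 at -0.52. Over the main setting and the other 14 alternatives, 0 genes were higher, 2 to 3 were lower and 1 was at least 2-fold apart, and the medians ran from -0.087 to 0.0085 for all genes studied, from -0.088 to 0.0085 for the enzymes and from -0.16 to -0.074 for the hypoxia response genes. MXI1 stayed between 0.40 and 0.49. Outside normexp on all spots, a sign turned by more than 0.081, the SD of replicate spots over all brightnesses, for HK1 without a filter on dim probes (0.066), for VEGFA and PDK1 with the brightest probe alone (-0.11 and -0.24) and for PDK1 without rows 450 to 510 (-0.23). Under another scaling, GAPDH, PDK1, ENO1, PFKL and PGAM1, all close to 0, changed sign by less than that SD. For genes of the further lists, where the settings were added after seeing the data, normexp on all spots turned the sign of RORA (1.22), RAB20 (0.22), TFRC (-0.63) and PKP1 (1.28), and no other setting turned that of a list gene named as 1.5-fold apart. PGK1 ran from -0.81 to -0.68, except relative to the median of its chromosome (-0.28), a setting chosen after seeing the data. No paired analysis was possible because each condition had 1 array, and for the same reason no array could be left out. Without replicate arrays, values measured on dim probes (ALDOC, SLC2A3, ARNT, CA9, EGLN3) are limited by signal over background.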

Other observations

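Genes of cell division and squamous markers were also measured. All 20 proliferation genes of the list were measured, their log2 ratios ran from -0.17 to 0.29 with a median of -0.028, and none was at least 1.5-fold apart. Of the 12 squamous epithelial markers, 11 were below 0, beside 50.2% of all genes, and the median was -0.47. At least 1.5-fold lower in eSAS were 4 of the markers, beside 4.99% of all genes. These were the basal keratins KRT5 (-0.63) and KRT14 (-3.90), PKP1, a desmosome protein (-0.83, but -0.49 with no background correction), and SFN, an epithelial cell cycle checkpoint protein (-0.59, but -0.56 with centring on the median). The 2 probes of KRT14 gave -6.58 and -1.23, and its mean is therefore poorly fixed.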
